A study of Capra hircus with 6 samples.

Results

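The contractile and basal genes of the mammary myoepithelium were examined in the dairy goat (*Capra hircus*) at 10 genes: *ACTA2*, *ACTG2*, *MYH11*, *MYL9*, *MYLK*, *CNN1*, *TAGLN*, *LIMA1*, *OXTR* and *TP63*. Their regions were all rows of the authors' table of differing accessible regions, whatever the p-value, whose centre lay inside one of these genes or within 50000 bp of one of its ends. This rule took 42 of 30714 listed regions, and each of the 10 genes had at least 1, against 79.7% of all protein-coding genes with a region so placed. Accessible chromatin was measured by ATAC-seq, an assay that uses the Tn5 transposase to cut open, nucleosome-free DNA and tag it for sequencing. The comparison was between lactation (3 libraries, replicates 1, 2 and 5) and the dry period between lactations (3 libraries, replicates 1, 2 and 3). The labels describe all of them as mammary epithelial cells of the mammary gland, with 50000 cells taken into each library, and they name no genotype, breed, age or agent. Nothing in them tells whether replicate libraries are separate animals, so the authors' p-values may measure only technical spread.

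Myoepithelial cells form the outer, basal layer of mammary ducts and alveoli and contract to eject milk. Oxytocin from the pituitary binds its receptor on these cells, calcium rises, and myosin light chain kinase phosphorylates the regulatory light chain so that smooth muscle myosin pulls on smooth muscle actin. The same contractile genes are active in the smooth muscle of blood vessels, and *TP63* and the basal keratins mark the basal epithelial layer.

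Regions in the table carry names of 2 kinds, called set 1 (22884 regions) and set 2 (7830 regions) here. Because no fold change lies below 1 in either set, a set was read as the regions with more signal in 1 period than in the other. Which set belongs to which period is stated neither in the table nor in the labels, and directions are therefore given by set. The table's title names the dry libraries before the lactation libraries, which would make set 1 the dry period only if the numbering follows the title. Read depth and values per library were not analysed here, so no error other than the authors' p and false discovery rate (FDR) stands behind a fold change. In such bulk libraries a change in the number of myoepithelial cells and a change in the chromatin of each cell cannot be told apart.

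The 42 regions were divided evenly, with 21 in set 1 and 21 in set 2. Set 2 thus held 50.0% of them (exact 95% binomial interval 34.2% to 65.8%, which covers counting error only), against 25.5% of all listed regions. *ACTA2*, *CNN1* and *LIMA1* had regions of set 1 alone, *TAGLN* had its single region in set 2, and the other 6 genes had regions of both sets. By the listed region nearest to a gene end, 5 of the 10 genes fell in set 2, namely *MYLK*, *MYH11*, *TAGLN*, *TP63* and *MYL9*. Over all 15191 protein-coding genes with a listed region in the same window, 20.9% did. The number of regions per gene was ordinary, with a median of 3 (range 1 to 8), against a median of 4 (interquartile range 2 to 7) over those genes.

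**Figure D1:**
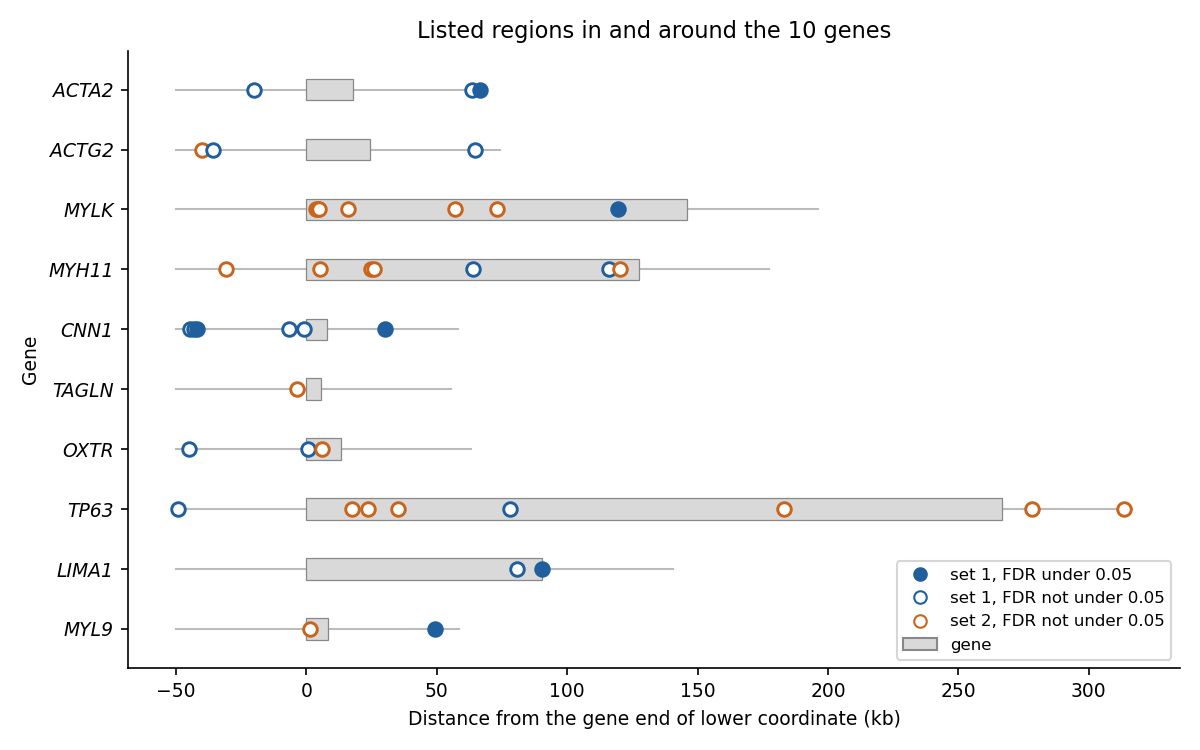
Position of the 42 listed regions relative to the gene end of lower coordinate (kb, horizontal axis) at each of the 10 genes. Grey bars are genes, thin lines the 50 kb either side, blue circles set 1 and orange circles set 2, filled where the authors' FDR was under 0.05. Orange circles lie mainly inside *MYLK*, *MYH11* and *TP63*, and the filled circles are all blue.

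At an FDR under 0.05, 6 of the 42 regions remained (14.3%), all in set 1, at *CNN1* (2 regions), *ACTA2*, *MYLK*, *LIMA1* and *MYL9*. The background was 27.8% of all listed regions, or 34.2% of set 1 regions and 9.23% of set 2 regions. Of the 10 genes' own set 1 regions 28.6% passed, and of their set 2 regions 0 of 21, with a lowest FDR of 0.0513 in the authors' deposited table. Of the 6 regions, 2, at *MYLK* and *LIMA1*, had that gene as their nearest protein-coding gene, and 4 lay nearer to a gene outside the 10. A region within 50000 bp at this FDR was found for 5 of the 10 genes, against 51.4% of all protein-coding genes.

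The FDR limit did not fall at the same p in the sets. In the authors' deposited table the largest p with an FDR under 0.05 was 6.21e-05 in set 1 and 5.63e-06 in set 2. At p up to 6.21e-05 in both sets, a limit chosen after the values were seen, the 10 genes had 6 regions in set 1 and 6 in set 2, which is 28.6% of their 42 regions. The background at that limit was 31.4% of all listed regions, of which 19.0% were in set 2. Set 2 regions of these genes were thus as many as set 1 regions at an equal p limit and absent at an equal FDR limit.

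**Figure D2:**
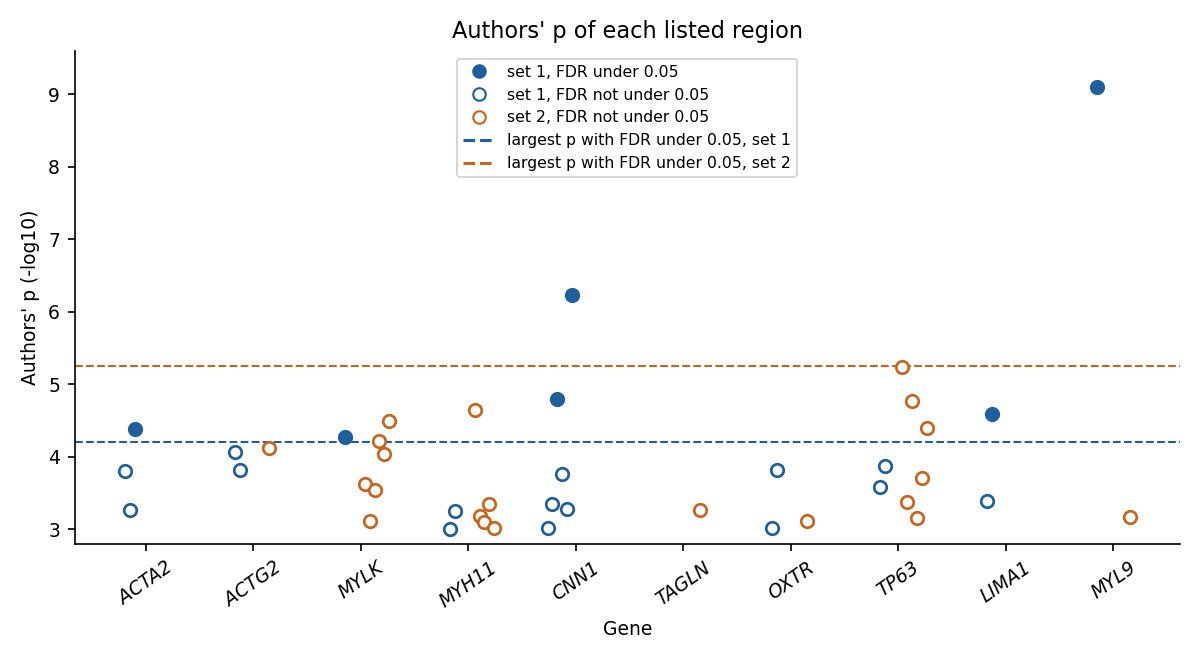
The authors' p of each of the 42 regions on a -log10 scale (vertical axis) by gene, with set 1 in blue and set 2 in orange, filled where the FDR was under 0.05. Dashed lines mark the largest p with an FDR under 0.05 in each set, 6.21e-05 in set 1 and 5.63e-06 in set 2, and the highest orange circle, at *TP63*, lies just below the set 2 line.

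*OXTR* encodes the oxytocin receptor, the entry point of the milk ejection signal. The authors' deposited table lists a set 1 region inside the gene, 774 bp from an end (chromosome 22, 17595401 to 17595700), at a fold change of 2.56 (p = 0.000153, FDR = 0.0879). Deeper in the same gene, 5924 bp from an end, the authors' deposited table lists a set 2 region (chromosome 22, 17600601 to 17600800) at a fold change of 4.47 (FDR = 0.766). The regions inside this 13.2 kb gene thus pointed to opposite periods, 4.9 kb apart, and neither passed the FDR limit. The last region, in set 1, lay 44976 bp outside the gene with 2.26-fold signal by the authors' deposited table (FDR = 0.266).

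*MYLK*, the calcium- and calmodulin-activated kinase that switches on smooth muscle myosin, had 7 listed regions, all inside the 146 kb gene, 6 in set 2 and 1 in set 1. A group of 3 set 2 regions stood side by side within 1300 bp, starting 3847 bp from an end by their centres, with fold changes of 5.51, 4.19 and 2.64 in the authors' deposited table (chromosome 1, 67748501 to 67749800). The farther set 2 regions, centred 15.9, 56.9 and 73.0 kb from an end, had fold changes of 3.30, 7.31 and 4.74 in the authors' deposited table, and the FDR of the 6 lay between 0.148 and 0.764. The 7.31 was the highest fold change among the 42 regions. The lowest p at the gene was that of the set 2 region at 67817601 to 67818300 (p = 3.18e-05, FDR = 0.148 in the authors' deposited table). The set 1 region, at 67864001 to 67864400, was given by the authors' deposited table a higher p of 5.30e-05 and yet an FDR of 0.0451, at 4.19-fold. *MYLK* was therefore a set 1 gene by FDR and a set 2 gene by number of regions, by the nearest region, by the largest fold change and by the smallest p.

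*MYH11*, the smooth muscle myosin heavy chain, had 5 regions in set 2 and 2 in set 1, of which 4 and 2 lay inside the 127 kb gene. Inside the gene, the authors' deposited table gives 3.80-fold, 2.75-fold, 5.62-fold and 5.67-fold in set 2, with FDR between 0.607 and 0.847. The set 1 fold changes inside were 2.46 and 2.61 in the authors' deposited table (FDR = 0.267 and 0.194). All 6 of these regions were 200 bp wide, the smallest width in the table, and the weakest by p stood near the listing limit of 0.001. The region of lowest p, in set 2 (chromosome 25, 13950801 to 13951400, fold change of 3.05, FDR = 0.119 in the authors' deposited table), lay outside the gene, in *NDE1*, which encodes a protein of dynein and centrosome function.

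*MYL9*, the regulatory light chain that the kinase phosphorylates, had 1 region in each set. The set 2 region lay inside the gene, 1389 bp from an end, at 2.37-fold by the authors' deposited table (p = 0.000674, FDR = 0.726). The set 1 region (chromosome 13, 65262401 to 65263000) had the lowest p of the 42, with 1.76-fold signal by the authors' deposited table (p = 7.93e-10, FDR = 1.36e-05). It lay 41.0 kb from *MYL9*, inside *TGIF2*, a gene for a homeodomain repressor. The lowest p of the 42 thus came with the second smallest fold change and with a nearer gene of another function.

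The smooth muscle actin genes had no listed region inside them. At *ACTA2*, alpha smooth muscle actin and the usual marker of myoepithelium, the authors' deposited table lists 3 set 1 regions 20.2, 45.8 and 48.8 kb from an end, with fold changes of 2.50, 1.64 and 2.19. The last of these (chromosome 26, 40777201 to 40777500) passed the limit at an FDR of 0.0380 in the authors' deposited table, and lay inside *STAMBPL1*, a deubiquitinase gene. *ACTG2*, gamma smooth muscle actin, had set 1 regions 35.8 and 40.4 kb away at fold changes of 2.18 and 3.49 (FDR = 0.0620 and 0.0882), and a set 2 region 40.1 kb away at 2.77 (FDR = 0.243), in the authors' deposited table. None of the 6 regions of the actin genes had the actin gene as its nearest protein-coding gene.

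*CNN1*, calponin, an actin-binding inhibitor of myosin, had 6 regions, all in set 1. The nearest lay 822 bp outside an end (chromosome 7, 95746001 to 95746200), at 4.11-fold and an FDR of 0.185 by the authors' deposited table. The lowest FDR, 0.00207, belonged to a region 22.2 kb away inside *ACP5*, an acid phosphatase gene, at 1.86-fold by the authors' deposited table (chromosome 7, 95776901 to 95777200). A group of 3 regions inside *ELAVL3*, a gene for a neuronal RNA-binding protein, included the other one under the limit, at a fold change of 2.06 (FDR = 0.0204) in the authors' deposited table. The remaining 3 regions had fold changes of 3.01, 2.66 and 2.84 in the authors' deposited table, with an FDR of up to 0.264. The region at the end of *CNN1* itself did not pass the limit, and both that did lay inside other genes.

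*TAGLN*, transgelin, a small actin-bundling protein, had a single region (chromosome 15, 54447901 to 54448100), in set 2, at 3.33-fold and an FDR of 0.664 by the authors' deposited table. It lay 3507 bp outside the gene and inside *PCSK7*, a proprotein convertase gene. *LIMA1*, an actin cross-linking protein found in epithelia in general, had 2 set 1 regions. The first straddled an end of the gene, with its centre 55 bp outside (chromosome 5, 29384101 to 29384300), and had 2.72-fold signal by the authors' deposited table (p = 2.60e-05, FDR = 0.0282). The second lay inside the gene, 9645 bp from that end, at 2.71-fold by the authors' deposited table (FDR = 0.159). *LIMA1* was the only one of the 10 genes with a region under the FDR limit within 3000 bp of an end, against 14.4% of all protein-coding genes. A listed region of any FDR stood within 3000 bp of an end for 4 of the 10 genes (40.0%, at *CNN1*, *OXTR*, *LIMA1* and *MYL9*), against 36.4% of all protein-coding genes.

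*TP63* encodes p63, the transcription factor that maintains basal epithelial cells. It had 8 listed regions, 6 in set 2 and 2 in set 1. At 6.61% of its length from the end of lower coordinate stood a set 2 region (chromosome 1, 77177201 to 77177700) with 4.25-fold signal by the authors' deposited table (p = 5.82e-06, FDR = 0.0513), the region of lowest p among the 21 of set 2 and just outside the limit. The other set 2 regions inside the 267 kb gene had fold changes of 3.47, 4.64 and 2.40 in the authors' deposited table, with an FDR of up to 0.735. Beyond the other end, 11.6 and 47.1 kb away, the authors' deposited table lists set 2 regions at fold changes of 3.21 (FDR = 0.405) and 4.17 (FDR = 0.169). The last of these was 800 bp wide (77473101 to 77473900), the widest of the 42. The set 1 regions, 1 inside and 1 outside the gene, had the lower fold changes of 1.79 and 2.16 in the authors' deposited table (FDR = 0.0803 and 0.122). At *TP63*, set 2 thus led in number, fold change and p, without a region under the FDR limit.

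**Figure D3:**
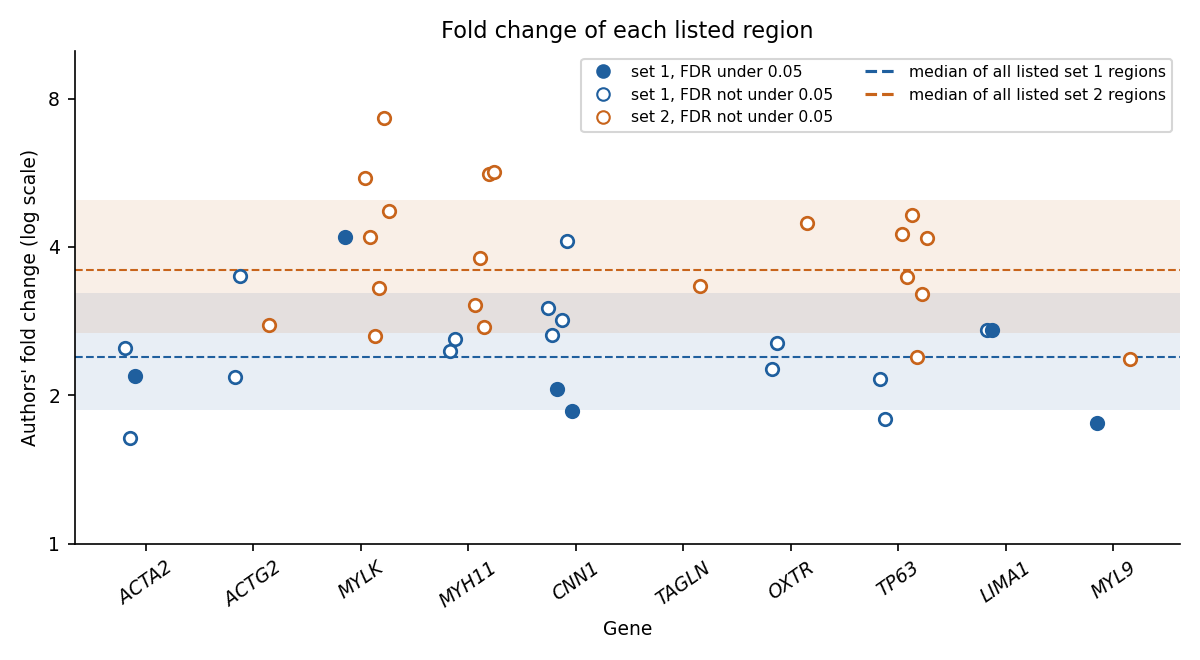
The authors' fold change of each of the 42 regions (vertical axis, log scale) by gene, with set 1 in blue and set 2 in orange, filled where the FDR was under 0.05. Dashed lines and shaded bands are the median and interquartile range of all listed regions of each set (2.39, 1.87 to 3.23 in set 1; 3.59, 2.67 to 4.98 in set 2), and 28 of the 42 regions lie within the band of their set.

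In size, the regions of the 10 genes were close to those of their sets. The median fold change was 2.50 (range 1.64 to 4.19) for their 21 set 1 regions, against 2.39 over all listed set 1 regions. For their 21 set 2 regions it was 3.80 (range 2.37 to 7.31), against 3.59 over all listed set 2 regions. A width of 200 bp was found for 22 of the 42 (52.4%), against 48.6% of all listed regions.

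Regions inside and outside the 10 genes fell in the sets in different proportions. Of 22 regions inside one of the 10 genes, 16 were in set 2 (72.7%, exact 95% binomial interval 49.8% to 89.3%), against 25.8% of the 15975 listed regions inside any protein-coding gene. Of the 20 outside them, 5 were in set 2 (25.0%, interval 8.66% to 49.1%), against 19.8% of listed regions outside all protein-coding genes and within 50000 bp of one. *MYLK*, *MYH11* and *TP63*, the 3 genes among the 10 of at least 100 kb, held 14 of the 16, among 18 regions inside them (77.8%, interval 52.4% to 93.6%). Set 2 took 38.0% of the 6183 regions inside all protein-coding genes of at least 100 kb, and 18.0% of those inside shorter genes only. Without these 3 genes, a split made after the values were seen, 2 of the 4 regions inside the other genes of the 10 were in set 2. The share was not tested, because the genes were chosen with results of these data known, and neighbouring regions of 1 gene are not independent.

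**Figure D4:**
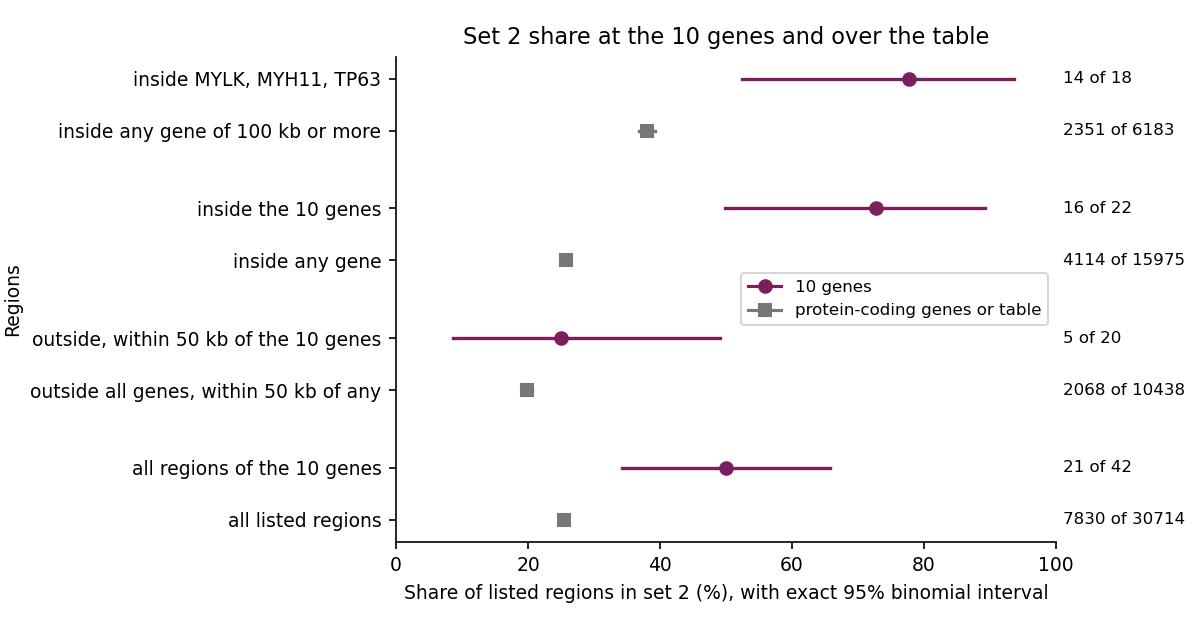
Share of listed regions in set 2 (horizontal axis, %) with exact 95% binomial intervals, in pairs with the 10 genes (purple circles) above the protein-coding genes or the whole table (grey squares), and the counts at the right. The 10 genes stand at 72.7% inside genes against 25.8%, and at 25.0% outside against 19.8%; a region outside one of the 10 genes may lie inside another gene.

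By number of set 2 regions inside the gene, *MYLK* with 6 stood among 50 of 2490 protein-coding genes of at least 100 kb with as many or more (2.01%). Close neighbours, such as the 3 at *MYLK* within 1300 bp, were each counted in these ranks and densities. *MYH11* and *TP63*, with 4 each, stood among 154 such genes (6.18%). Per length, these 3 genes together held 2.59 set 2 regions per 100 kb, against 0.370 over all 2490 genes. Their set 1 density, 0.741 per 100 kb, was nearer to the 0.603 over all 2490. More set 2 than set 1 regions inside was found in each of the 3, against 32.0% of the 1823 genes of that length with any region inside. None of these set 2 regions passed the FDR limit, so each count is of regions listed at p under 0.001.

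**Figure D5:**
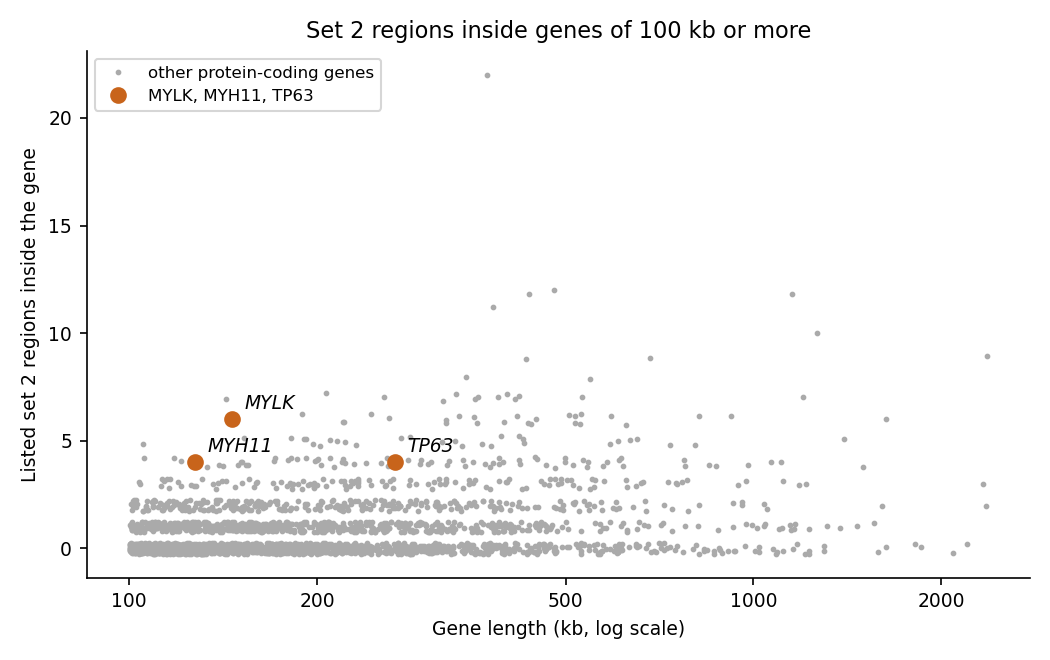
Number of listed set 2 regions inside each of 2490 protein-coding genes of at least 100 kb (vertical axis; grey points are spread slightly so that they can be seen) against gene length (kb, log scale). *MYLK* (6 regions), *MYH11* (4) and *TP63* (4) are the orange circles, and 6.18% of the genes plotted have 4 or more.

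The other genes of the contractile and basal programme, in 4 lists of 76 genes, had their regions mostly in set 1, as did all protein-coding genes. Of 70 matched on numbered chromosomes, 66 had a listed region within 50000 bp, against 79.7% of all protein-coding genes. By the nearest region, 56 were in set 1 and 10 in set 2 (15.2%), against 20.9% of all genes with a listed region. Within 50000 bp, 50 of the 70 genes had a region at an FDR under 0.05 (71.4%), against 51.4% of all protein-coding genes. By the nearest such region, 46 of the 50 were in set 1 and 4 in set 2 (8.00%), against 6.66% in set 2 over all genes with such a region. The 4 were *ITPR1*, *RGS2*, *SYNPO2* and *LAMB3*. *TPM2* and *TLN1* had the same nearest region under the FDR limit, in set 1, which was counted for each gene. The 22 matched genes of at least 100 kb held 113 regions inside, of which 31.0% were in set 2 (exact interval 22.6% to 40.4%), or 39.1% without *TEAD1*, which alone held 26. These shares leave out *MRTFA*, also of at least 100 kb, which under its older symbol *MKL1* held 5 set 2 regions and 0 set 1 regions inside. Inside *MYLK*, *MYH11* and *TP63* the share was 77.8%, and the difference was not tested.

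In the oxytocin signal downstream of the receptor, the nearest region was in set 1 for 14 of 17 genes and in set 2 for 3. A region under the FDR limit was found for 12 of the 19 matched genes, against 51.4% of all protein-coding genes. The nearest such region was in set 1 for 10 and in set 2 for 2, against 6.66% in set 2 over all genes with such a region. *CACNA1C*, the pore of the L-type calcium channel, had 6 of its 7 regions in set 2 and 4 of these inside the gene. The FDR limit was passed by 2 of the 7, its only set 1 region and 1 set 2 region farther from an end. The set 1 region had 1.94-fold signal by the authors' deposited table (FDR = 0.0445). It lay 35456 bp outside the gene, with *CECR6* as its nearest protein-coding gene. *RHOA* and *ROCK1* had their nearest region in set 1 and under the FDR limit. The fold changes were 1.59 for *RHOA*, inside the gene (FDR = 0.0351), and 1.82 for *ROCK1*, outside and nearer to *USP14* (FDR = 0.0116), in the authors' deposited table. *ITPR1*, a calcium release channel of the endoplasmic reticulum, had 8 regions in set 1 and 5 in set 2. Its nearest region under the FDR limit was in set 2, 11331 bp outside the gene, at 2.74-fold by the authors' deposited table (FDR = 0.00542).

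Among 20 myosin and thin filament genes with a region, 16 were in set 1 and 4 in set 2 by the nearest region. In set 1 and within 3000 bp of an end, the authors' deposited table gave fold changes of 1.57 for *CSRP1* (FDR = 0.000764), 1.68 for the tropomyosin *TPM1* (FDR = 0.000993), 1.45 for the smoothelin *SMTN* (FDR = 0.00111) and 2.09 for the myosin essential light chain *MYL6* (FDR = 0.00387). *KCNMB1*, a potassium channel subunit of smooth muscle, and *CALD1*, caldesmon, which binds actin and myosin, had set 2 regions nearest, at 3.02 and 5.21 in the authors' deposited table, neither under the FDR limit (FDR = 0.128 and 0.199). *CALD1* also had 5 set 1 and 3 set 2 regions inside, and its nearest region under the limit was in set 1 and inside the gene, at 1.83-fold by the authors' deposited table (FDR = 0.0284).

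The regulators were in set 1 for 8 of the 9 matched genes by the nearest region. This count leaves out *MRTFA*, not matched by that symbol, which as *MKL1* held 5 set 2 regions and 0 set 1 regions inside. *MYOCD*, the coactivator of smooth muscle genes, had 1 region, in set 1, 10863 bp outside the gene at 2.83-fold by the authors' deposited table (FDR = 0.00972). Of the basal adhesion genes, 18 of 20 had their nearest region in set 1. There the authors' deposited table gave 3.81-fold for the region nearest to *PLEC*, a linker of hemidesmosomes (FDR = 4.31e-07). The basal keratins differed. *KRT5* had 3 regions, all in set 1, of which 2 passed the FDR limit. The nearer of these lay inside the gene, 1094 bp from an end, at 2.28-fold by the authors' deposited table (FDR = 0.000458). *KRT14* had a set 2 region nearest, 24890 bp away and nearer to *KRT9*, at 4.26-fold by the authors' deposited table (FDR = 0.736).

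Markers of other cell types that share genes or neighbours with the myoepithelium gave mixed counts. By the nearest region, set 2 held 1 of 10 luminal genes with a region, 2 of 7 genes of vascular smooth muscle and pericytes, 3 of 6 fibroblast genes and 4 of 8 endothelial genes, against 5 of the 10 contractile and basal genes. Inside the genes, set 2 held 1 of 12 luminal regions, 5 of 8 vascular smooth muscle and pericyte regions, 3 of 7 fibroblast regions and 9 of 19 endothelial regions, against 16 of 22 in the contractile and basal genes. Under the FDR limit, the nearest region was in set 2 for 0 of 10 luminal genes, 0 of 5 vascular smooth muscle and pericyte genes, 0 of 2 fibroblast genes and 3 of 6 endothelial genes (*VWF*, *CDH5* and *TEK*), against 0 of 5 contractile and basal genes. The pericyte genes *ABCC9* and *KCNJ8* had the same nearest region, in set 1, which was counted for each gene with and without the FDR limit. Over all protein-coding genes, set 2 held the nearest region for 20.9% of genes with one and 25.8% of the listed regions inside. Among all genes with a region under the FDR limit, the nearest such region was in set 2 for 6.66%. The part of other cell types in the set 2 regions of *MYLK*, *MYH11* and *TP63* was not tested.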

How the data were processed

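The authors deposited 1 table of differing regions that sets the lactation libraries against the dry libraries. Per the file headers it holds positions and width (bp, another unit than the values), signal value, fold change, p-value and Benjamini-Hochberg FDR. As deposited, the fold change is a ratio on a linear scale, and the p-value and FDR (q-value) are the authors' own. The signal value is a score, not used here, whose median ratio to the fold change was 32.0 in set 1 and 20.4 in set 2. Bowtie2 2.2.5 and MACS2 appear in the submitters' processing notes without a role. Genome build, program for differential regions, duplicate removal and any Tn5 shift: not given in the sources used here. Depth is unknown.

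Gene names, lengths and neighbours came from a RefSeq gene table (assembly ARS1.2, no strand); none of its coordinates are printed, as the build behind the regions is unknown. In a check of chromosome numbering, a chromosome's regions stood within 1000 bp of its own genes' ends more often than of any other chromosome's, for 29 of 29. All 10 genes matched by symbol, and 19063 protein-coding genes were the background. Region coordinates are the authors', counted from 1.

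A region belonged to a gene when its centre lay inside it or within 50000 bp of an end. Tests are the authors' p and FDR per region. The FDR was not adjusted over the listed regions alone, as it reached 0.270 in set 1 and 0.858 in set 2. Over those alone it could not exceed the largest listed p, 0.001. Nor were the sets adjusted as one, since the largest p under the FDR limit was 6.21e-05 in set 1 and 5.63e-06 in set 2. How many regions the authors tested is unknown. No test across libraries could be run, and lists are described by counts. Intervals are Clopper-Pearson and cover counting error only. Placement was tested on simulated data. Members and lists were chosen with earlier results of these data known. Every member is described; of each further list the rule took up to 5 genes whose nearest region had an FDR under 0.05, by lowest p, and the 2 of lowest p in set 2, and part of these are given. *ITPR1*, *RGS2*, *SYNPO2*, *LAMB3* and *KRT5* were named after their values were seen. The rule did not take *KRT5*, whose nearest region was in set 1 at an FDR of 0.165. *GNAQ*, *MRTFA*, *MRTFB* and *KRT17* had no match by these symbols, and *FLNA* and *ELK1* were not on a numbered chromosome. *MRTFA* was present under its older symbol *MKL1* and is in none of the list counts. Python 3.11.15, pandas 2.3.3 and scipy 1.17.1 were used. Some genes of the further lists are not reported here.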

Additional observations from a re-analysis of the deposited data

How the results depend on the processing

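Of the alternatives tried, 47 values stayed within 1.5 times the reported count or within the interval of the reported share or median, and 15 did not. Among the 47 are medians that could not change, because the gene left out had no region of that set. These are the set 2 medians without *ACTA2*, *CNN1* or *LIMA1* and the set 1 median without *TAGLN*. The 42 regions became 27 within 20000 bp of a gene end, 24 inside or within 3000 bp, and 26 when only regions with one of the 10 as nearest gene were kept. The 6 of 42 regions under the FDR limit became 2 at an FDR under 0.01 (13.1% of all listed regions pass) and 3 at p under 1e-05 (17.0% of all listed regions pass). At an FDR under 0.10 they became 13, with 12 in set 1 and 1 in set 2. The share of all listed regions at 0.10 was not counted. At the limit of 0.05 they became 2 of 27 regions within 20000 bp and 12 of 59 within 100000 bp, against 27.8% of all listed regions. With the set 1 p limit in both sets, an alternative added after the data were seen, the 6 became 12 of 42 (31.4% of all listed regions pass). The set 1 share of 50.0% was 100% of 6 regions at an FDR under 0.05, where set 1 held 7820 of all 8543 listed regions. At p under 1e-05 the set 1 share was 66.7% of 3 regions, and that of all listed regions was not counted. It was 33.3% within 20000 bp, 33.3% inside or within 3000 bp, and 30.8% with one of the 10 as nearest gene. Leaving out single genes kept it between 41.7% (without *CNN1*) and 57.1% (without *MYLK*). The set 1 median fold change of 2.50 was 2.12 at an FDR under 0.05. The set 2 share inside the genes, 72.7%, was 66.7% without *MYLK*, 75.0% without *MYH11*, 70.6% without *TP63* and 68.4% with neighbours of 1 set less than 2000 bp apart counted once. The causes were not tested, apart from the narrower windows and stricter limits holding fewer regions by construction. No paired analysis was possible because the table holds no value per library, and leaving out libraries was not run for the same reason. The planned motif search in promoters was not run, since no sequence was used here.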

Other observations

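Some other genes of the wider contractile and basal programme held many regions, in values chosen after they were seen. *TEAD1*, a transcription factor that acts with the coactivators *YAP1* and *WWTR1*, held 25 set 1 regions and 1 set 2 region inside its 269 kb. Of its 29 regions within 50000 bp, 28 were in set 1, and 12 of the 29 had an FDR under 0.05. The background was 27.8% of all listed regions, or 34.2% of all listed set 1 regions. *DST*, a linker of keratin filaments to hemidesmosomes, held 7 set 2 regions and 2 set 1 regions inside its 530 kb, more set 2 than set 1, as at *MYLK*. *ACTN1*, the actin cross-linker alpha-actinin, held 5 set 2 regions and 2 set 1 regions inside its 96.1 kb, while the 11 set 1 regions within 50000 bp were more than its 5 set 2 regions. *EGFR*, the receptor of epidermal growth factor, held 4 set 2 regions and 2 set 1 regions inside. The differences between these genes were not tested.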
